A study of Mus musculus with 3 samples.

Results

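The cytosolic ribosomal protein genes of mouse macrophages are described here as a group. They were chosen by name, as genes whose symbol is Rpl, Rps or Rplp followed by a number and at most 1 of the letters a, x, y or l, and which have at least 1 transcript annotated as protein coding. Of 82 genes whose symbol fits, 79 had such a transcript, among 55536 genes in all. The large subunit had 49 of the 79 and the small subunit 30. The other 3 names, Rps4l, Rpl32l and Rpl6l, belong to annotated pseudogenes and were left out.

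Bone marrow of the inbred mouse strain C57BL/6J gave the macrophages, and polyadenylated RNA of whole-cell extracts was sequenced in 3 libraries. All carry the same label, lipid A at 100 ng/ml for 0 minutes, so they are unstimulated and form 1 group with no second group to set them against. Lipid A is the membrane anchor of bacterial lipopolysaccharide, which macrophages sense through a Toll-like receptor. Age and sex were not collected. The labels name 1 donor record for all 3 libraries and do not state that different animals were used, so their spread may be partly technical. The libraries held 27946070, 29779410 and 53447437 counts in replicates 1, 2 and 3. All 6 macrophage markers looked up (Cd68, Csf1r, Adgre1, Itgam, Tyrobp and Lyz2) reached 1 TPM in each library, and their summed level was 19970 to 38170 TPM. TPM is a transcript level per unit of length, scaled to sum to 1000000 in each library. Markers of B cells, T cells and stromal cells summed to at most 0.45 TPM in any library, and the erythroid marker Hba-a1 was listed at 0. Of the neutrophil markers Ly6g was listed at 0 and S100a8 stood at 65.05, 12.3 and 83.0 TPM in replicates 1, 2 and 3. Replicate 3 stood apart from the other libraries: transcripts of the mitochondrial genome took 6.98% of its counts, against 1.84% and 2.24% in replicates 1 and 2. Results that rest on it are given with and without it.

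A ribosome is built from a large and a small subunit, each a core of ribosomal RNA covered by proteins that are needed in about equal numbers. The messengers of these proteins are among the most abundant in growing cells. They are short, and many begin with a 5' terminal oligopyrimidine (TOP) tract, a C followed by a run of C and T through which the mTOR pathway and the RNA-binding protein LARP1 control their translation. The genes have also given rise to many processed pseudogenes, copies made from messenger RNA and inserted elsewhere in the genome.

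Nearly the whole set was transcribed at high levels in the resting macrophages. Of the 79 genes, 76 reached 1 TPM in each of the libraries, 76 also 10 TPM and 74 also 100 TPM. The median over these 76 genes of the mean TPM was 749.6 (library medians 895, 911 and 420 TPM in replicates 1, 2 and 3, SD 279, n = 3), against 15.6 TPM over all 11644 genes with a mean of at least 1 TPM. Without replicate 3 the members' median was 912 TPM. All members together took 7.58%, 8.21% and 3.85% of all TPM. As a share of counts they took 2.12% (95% Wilson interval 2.12 to 2.13), 2.24% (2.24 to 2.25) and 1.29% (1.28 to 1.29), because short messengers give few fragments each.

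**Figure D1:**
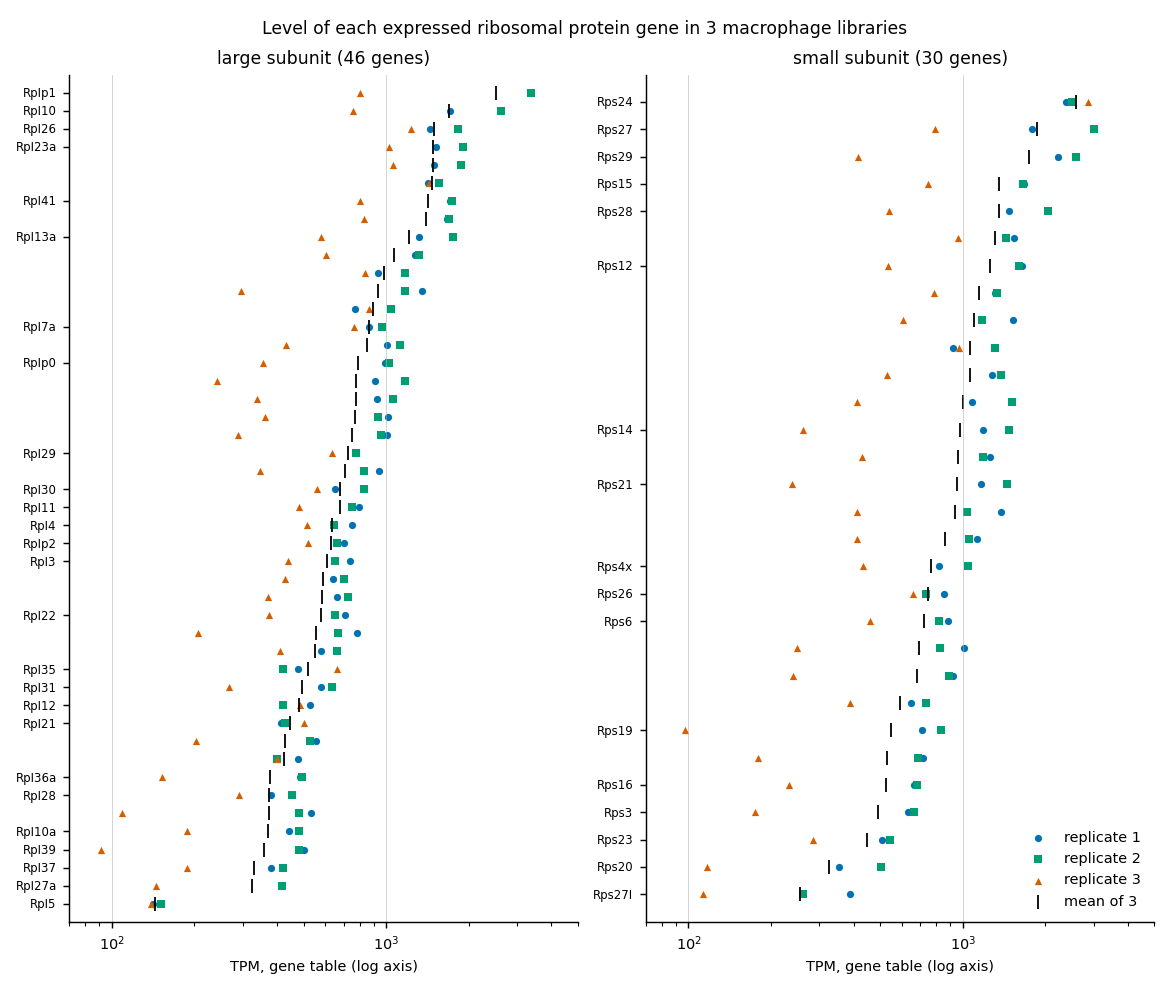
TPM of each of the 76 expressed ribosomal protein genes (rows, sorted by mean, with names for those the text describes) in replicates 1, 2 and 3 (points), with the mean of 3 (bar), on a log axis; large subunit genes on the left, small subunit genes on the right. Most points of replicates 1 and 2 lie close together, and most of those of replicate 3 lie to their left.

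The large subunit was led by Rplp1 (chromosome 9, 61913284 to 61914542, minus strand, build mm10), an acidic protein of the stalk that recruits translation factors. Rplp1 stood at 3370, 3382 and 805 TPM in replicates 1, 2 and 3. Its partner Rplp2 (chromosome 7, 141447370 to 141451585, plus strand) stood at 705, 664 and 520 TPM, and Rplp0, the base of the stalk (chromosome 5, 115559467 to 115563727, plus strand), at 991, 1027 and 357 TPM. The stalk of the ribosome holds 1 copy of the base protein and pairs of the acidic proteins. Replicate 3 was the lowest library for each of these genes, and in it Rplp1 and Rplp2 were closer together in TPM than in the others. There the short form Rplp2-203 took 91.5% of the TPM of Rplp2, against 27.6% and 27.4% in replicates 1 and 2. The shorter length enters the TPM, so the narrower gap does not measure the balance of the stalk.

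After Rplp1 came Rpl10 (chromosome X, 74270812 to 74273135, plus strand), which joins the large subunit late in its assembly, with 1704, 2626 and 759 TPM. Rpl26 (chromosome 11, 68901583 to 68906989, plus strand) followed at 1447, 1825 and 1229 TPM. Rpl23a averaged 1482 ± 443 TPM (SD, n = 3). The lowest expressed members of the large subunit were Rpl5 at 144 ± 6.42 TPM, Rpl27a at 325 ± 156 TPM, Rpl37 at 329 ± 124 TPM, Rpl39, a protein of the exit tunnel, at 359 ± 232 TPM, and Rpl10a at 370 ± 159 TPM. The levels of Rpl5, Rpl27a, Rpl10a and Rpl10 differed between the gene table and the kallisto-format tables, a second estimate of transcript levels in the same libraries. In the kallisto-format tables their means were 14.1, 143, 183 and 564 TPM, so these levels depend on the estimate used. The copy of Rpl27a named Gm7536 averaged 628 TPM in the gene table. The part of reads shared with copies was not tested. Rpl5 and Rpl11 carry the 5S ribosomal RNA into the large subunit. Rpl11 averaged 677 ± 170 TPM.

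The small subunit was led by Rps24 (chromosome 14, 24487125 to 24496959, plus strand), which stood at 2382, 2500 and 2855 TPM and was the member of highest mean. Replicate 3 was its highest library. Rps27 (chromosome 3, 90212522 to 90213651, minus strand) stood at 1783, 3008 and 790 TPM. Rps29 (chromosome 12, 69157722 to 69159186, minus strand), a small zinc-finger protein, stood at 2225, 2580 and 413 TPM. Both were lowest in replicate 3. Rps15 averaged 1359 ± 532 TPM and Rps28 1353 ± 763 TPM. The lowest were Rps27l at 254 ± 138 TPM, Rps20 at 325 ± 195 TPM, Rps23 at 446 ± 141 TPM, Rps3 at 490 ± 273 TPM and Rps16 at 524 ± 253 TPM. The level of Rps23, and so its rank, depends on the estimate used: it averaged 216.5 TPM in the kallisto-format tables. Its copy Rps23-ps1 averaged 628 TPM in the gene table, and the part of shared reads was not tested. Rps6 (chromosome 4, 86854660 to 86857412, minus strand), the protein that S6 kinases phosphorylate, averaged 720 ± 229 TPM. The shortest messengers have the least certain TPM, because a read fragment covers most of them: the effective length used for Rps27 was 104 to 111 bases, whereas the median over the 76 genes was 438 bases.

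Only 3 members fell below 1 TPM in any library, and each is a paralog known for expression in another tissue. Rpl39l, known from testis, stood at 1.59, 0.56 and 0.27 TPM, from 16, 6 and 6 expected counts. Rpl3l, known from heart and skeletal muscle, had 1, 0 and 2 counts. Rpl10l, which stands in for the X-linked Rpl10 in male germ cells, had 0 counts in every library, which allows up to 3 counts in each, or 0.107, 0.101 and 0.0561 CPM (counts scaled to a library sum of 1000000). The usual forms were Rpl39 at 359 ± 232 TPM, Rpl3 at 610 ± 154 TPM and Rpl10 at 1696 ± 934 TPM. Rps27l, which p53 is known to induce, was the exception among the paralogs of this kind: it stood at 389, 261 and 113 TPM, against 1783, 3008 and 790 TPM for Rps27. Rps4x, X-linked in the mouse, averaged 767 ± 309 TPM, while its pseudogene-annotated relative Rps4l stood at 5.31, 2.00 and 1.54 TPM.

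Some ribosomal components have names that the pattern misses. Rpsa averaged 539 ± 195 TPM, Rps3a1 988 ± 125 TPM and the ubiquitin-like fusion gene Fau 994 ± 420 TPM, all of the small subunit. The scaffold Rack1, which sits on the small subunit, averaged 456 ± 202 TPM. The paralog Rpl36al was about as abundant as Rpl36a, at 413 ± 75.2 TPM and 377 ± 194 TPM, whereas Rpl22l1 stood at 86.2 ± 71.5 TPM beside Rpl22 at 578 ± 178 TPM.

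Genes of the large subunit were lower in TPM than those of the small subunit in 2 of the 3 libraries by the gene table. In replicate 1 the median over expressed members was 773 TPM for the large subunit and 1104 TPM for the small subunit. The medians were 766 TPM (large) and 1113 TPM (small) in replicate 2, and 429 TPM (large) and 413 TPM (small) in replicate 3. The log2 ratio of large to small was therefore -0.51, -0.54 and 0.05. Its mean of -0.33 was no larger than its SD of 0.34 (n = 3), and the exact two-sided sign-flip permutation test over the libraries gave p = 0.5, where the smallest p that 3 libraries allow is 0.25. Without replicate 3 the mean was -0.53. On kallisto-format TPM the log2 ratio was -0.33, -0.25 and -0.02 in replicates 1, 2 and 3 (exact sign-flip p = 0.25). With close copies summed the mean was -0.14, and -0.07 on kallisto-format TPM with copies summed, where replicate 3 was at 0.30. The direction rests on the length correction: on TMM-scaled CPM with no length correction the mean was 0.07. TMM scaling (trimmed mean of M values) sets libraries to a common level over most genes. The median transcript was 778 bases long in the large subunit and 586 in the small subunit. Summed over members, the large subunit took 41723, 45080 and 23038 TPM and the small subunit 34048, 36976 and 15507 TPM.

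**Figure D2:**
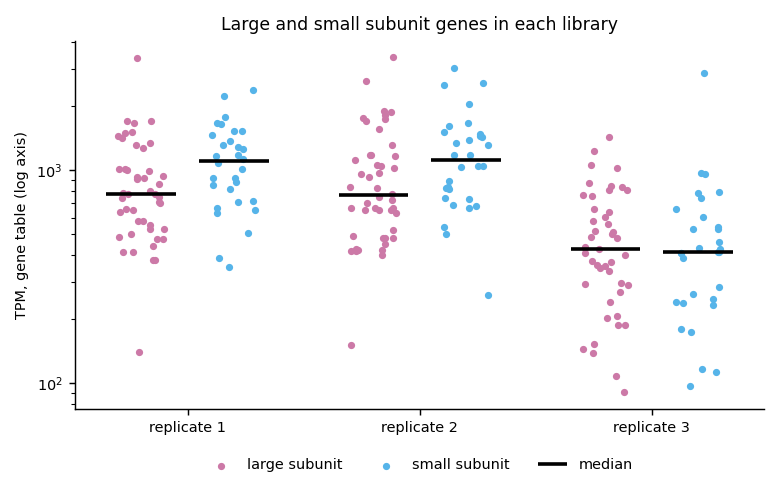
TPM (log axis) of the 46 large subunit and 30 small subunit genes in each library, 1 point per gene, with the median of each set as a bar. The large subunit median lies below the small subunit median in replicates 1 and 2, and the medians lie side by side in replicate 3 at 429 and 413 TPM.

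The order of the genes was nearly the same in replicates 1 and 2. Across the 76 genes, which share the libraries and are not independent replicates, TPM in replicates 1 and 2 had a Spearman correlation of 0.95. For replicate 3 it was 0.63 with replicate 1 and 0.64 with replicate 2. On TMM-scaled counts, 0 of the 76 genes were over 2-fold apart between replicates 1 and 2. Over all 11886 genes that passed the count filter 20.0% were, and over the 853 genes at least as abundant as the lowest expressed member 15.2% were. The median log2 ratio of replicate 1 to replicate 2 was -0.01 over members, with an SD over members of 0.25, against an SD of 0.92 over all genes. With 1 group and 3 libraries no test across genes was made of these counts.

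Ribosome assembly genes behaved otherwise in those libraries. Of 28 such genes, which process ribosomal RNA and build the subunits, 27 were higher in replicate 1 than in replicate 2. Their median log2 ratio was 1.27, and 19 were over 2-fold apart (background 20.0% of all tested genes). The share of all tested genes higher in replicate 1 than in replicate 2 was not counted, so this count by direction has no background. Against the mean of the others, the assembly genes had a median log2 ratio of 1.22 in replicate 1 and -0.92 in replicate 2. All tested genes were at 0.0025 and -0.0008. Nucleolin (Ncl) stood at 236, 106.5 and 288 TPM in replicates 1, 2 and 3. The RNA polymerase I subunit gene Polr1a stood at 22.8, 5.25 and 11.9 TPM. Myc, a transcription factor known to drive ribosome production, stood at 34.7, 1.92 and 6.91 TPM. Ncl, Polr1a and Myc were lowest in replicate 2, whereas 6 of the 28 assembly genes were lowest in replicate 3 (background 32.8%). In replicate 1 the genes of ribosomal RNA, those of the mitochondrial genome included, took 9.84% of counts, against 2.05% in replicate 2 and 2.84% in replicate 3. The mitochondrial ones are also part of the mitochondrial share given above. The part of ribosomal RNA in the differences between these libraries was not tested. Mitochondrial ribosomal protein genes, which serve the separate ribosome of mitochondria, were higher in replicate 1 than in replicate 2 in 68 of 78 cases. That count by direction lacks a background too. The median log2 ratio of these genes was 0.39, and 7 of 78 were over 2-fold apart, fewer than the background of 20.0%.

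Ribosomal protein transcripts were low in replicate 3. On TMM-scaled counts 62 of the 76 genes were lowest in replicate 3, against a background of 32.8% of all tested genes and 30.4% of those as abundant as the members. The median log2 ratio of replicate 3 to the mean of the others was -0.84 over the 76 genes and 0.01 over all tested genes. Taken against single libraries, the median was -0.78 (replicate 3 over 1) and -0.83 (replicate 3 over 2). In this library 33 of 76 members were over 2-fold lower than in the others (background 7.84%, and 10.4% of genes as abundant), and 1 was over 2-fold higher (background 6.05%). In RNA from whole cultures, fewer cells of a type and less RNA per cell cannot be told apart. The difference is between 1 library and the others, so it has no replicate check.

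**Figure D3:**
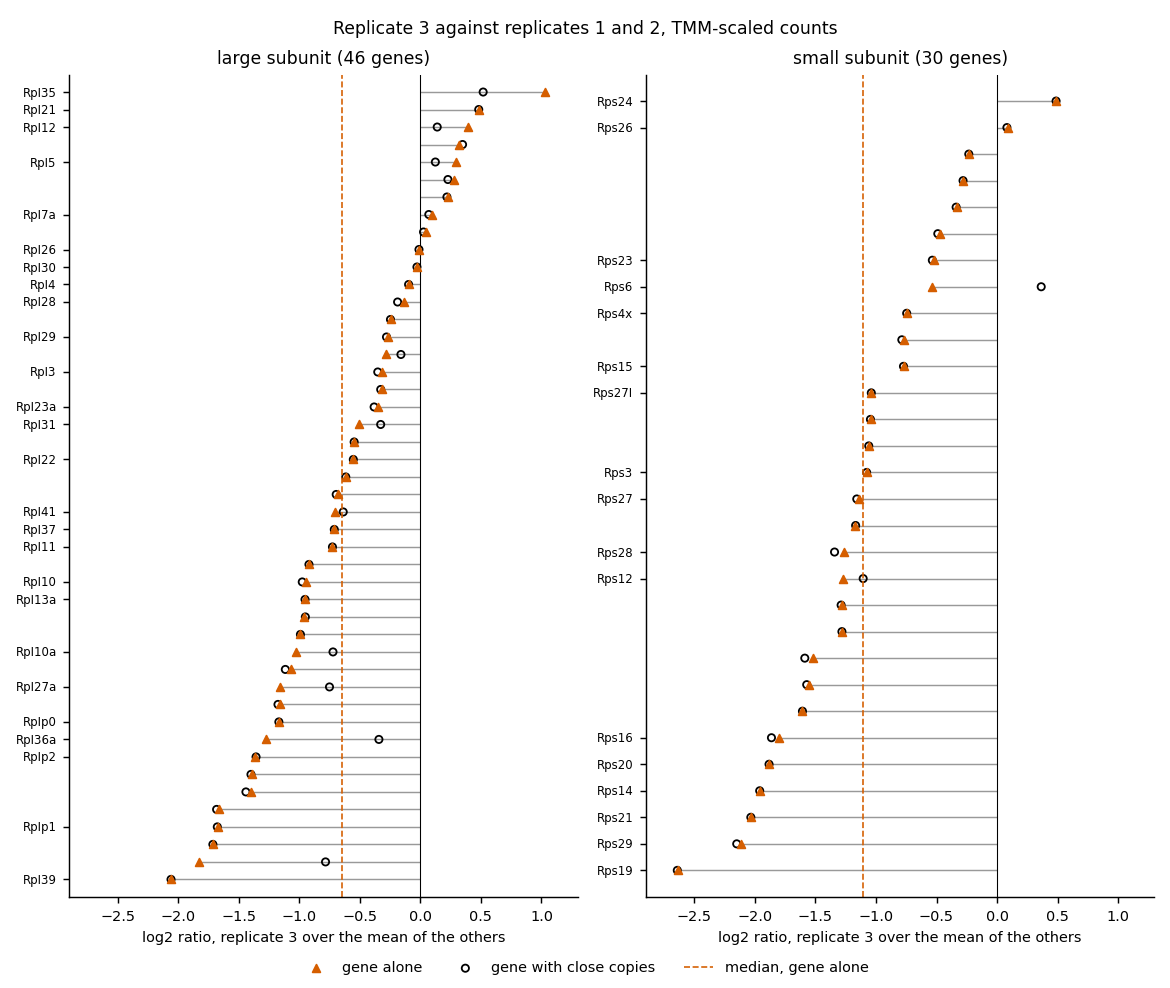
Log2 ratio of TMM-scaled counts in replicate 3 to the mean of replicates 1 and 2 for each expressed gene (rows, with names for those the text describes), for the gene alone (triangles) and summed with its close copies (circles); dashed lines are subunit medians for the gene alone. The ratios run from -2.64 for Rps19 to 1.03 for Rpl35, and most genes lie left of 0.

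The ratios were uneven among the members. The small subunit had a median log2 ratio of -1.11 with 28 of 30 genes lowest in replicate 3, and the large subunit -0.65 with 34 of 46; the gap between the subunits was not tested, since genes are not replicates. Rps19 (chromosome 7, 24884371 to 24889806, plus strand), the gene most often mutated in human Diamond-Blackfan anaemia, stood at 709, 833 and 97.5 TPM in replicates 1, 2 and 3. Its log2 ratio in replicate 3 was -2.64, the lowest of the members. Rps29 (-2.12), the exit-tunnel gene Rpl39 (-2.06), Rps21 (-2.03) and Rps14 (-1.96), whose loss is known from the human 5q- syndrome, came next. Rps14 stood at 1185, 1474 and 262 TPM. These were the 5 members with the largest SD of log2 CPM over the libraries, from 1.14 to 1.53. All 5 were lowest in replicate 3.

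At the other end Rpl35 (chromosome 2, 39001580 to 39005624, minus strand) stood at 477, 421 and 661 TPM, with a log2 ratio in replicate 3 of 1.03. Rps24 (0.49) and Rpl21 (0.48) were also higher there. The steadiest members included Rpl7a, Rpl4, Rps26 and Rpl28, with an SD of log2 CPM of 0.09 to 0.15. Rpl7a stood at 864, 966 and 763 TPM and Rps26 at 856, 732 and 656 TPM. Over all members the SD of the log2 ratio in replicate 3 was 0.73, against 0.25 between replicates 1 and 2. Over all tested genes the SD of the ratio in replicate 3 was 0.71, so the members' spread there was near that of genes in general.

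Related genes did not all share the low level of replicate 3. The 26 tested ribosomal protein pseudogenes did, with a median log2 ratio of -0.755 there. Of the 26, 18 were lowest there (background 32.8% of all tested genes) and 11 over 2-fold lower (background 7.84%). Many such pseudogenes are close copies of members, and reads that match both are divided between them. They are therefore no separate observation from the members. Another 15 genes are known for 5' TOP messengers, among them elongation and initiation factor genes and the non-coding host gene Gas5. Their median log2 ratio in replicate 3 was -0.01. Of the 15, 6 were lowest there (background 32.8% of all tested genes) and 0 over 2-fold lower (background 7.84%). In a list of 15 genes these counts are near the background. The elongation factor gene Eef1a1 stood at 5502, 5877 and 4761 TPM, and the poly(A)-binding protein gene Pabpc1 at 585, 466.5 and 1166 TPM. Eef1b2, at 447, 524 and 209 TPM, was the lowest of them in replicate 3 by log2 ratio (-0.86). The 13 TOP and mTOR regulators had a median of 0.15, with 2 of 13 lowest in replicate 3 (background 32.8%). Larp1 stood at 53.0, 41.7 and 42.0 TPM and Mtor at 11.8, 10.3 and 10.4 TPM. The 28 assembly genes had a median of -0.07 and the 78 mitochondrial ribosomal protein genes -0.20. Of the core genes that the pattern misses, Fau was at -1.23, Rpsa at -0.11 and Rps3a1 at 0.09. Rack1 was at -1.35.

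**Figure D4:**
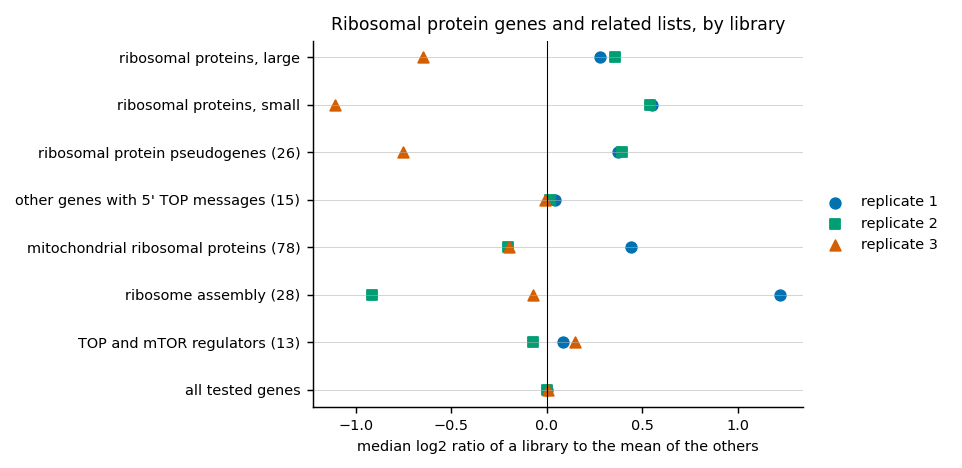
Median log2 ratio of each library to the mean of the others, on TMM-scaled counts, for ribosomal protein genes of the large subunit (46) and small subunit (30), for related gene lists (number tested in brackets) and for all tested genes. Replicate 3 is at -0.65 and -1.11 for the ribosomal protein genes and at -0.01 for the other TOP genes, and for the ribosome assembly genes replicate 1 is at 1.22 and replicate 2 at -0.92.

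Length and base composition moved with the result to some degree. The 24 members of 400 to 600 bases had a median log2 ratio of -0.84 in replicate 3, against -0.19 for other genes of that length. The 16 members of 600 to 800 bases were at -1.12, against -0.15 for other genes. The 8 members with over 57% G and C were at -1.23, against -0.41 for other genes of that class. Among the 12 members with 45% to 48% G and C the median was -0.42, where other genes were at 0.12. Across the 76 members, which share all 3 libraries, the Spearman correlation of the ratio was 0.32 with transcript length and -0.34 with the share of G and C. Members were thus below other genes of like length and like composition in these classes, and the part of either property in the result was not tested. In the same library the mitochondrial share was 6.98% and the depth 53447437 counts, and their part was not tested.

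The annotated start sites show which members carry a pyrimidine tract in the reference. RefSeq start windows on build GRCm38.p6 were found for 59 of the 79 members. A run of at least 5 C or T that begins with C, from 5 bases before to 10 bases after the start on the transcribed strand, was present at 36 of their 71 starts (50.7%), against 24.3% of all 32851 starts. By gene it was 34 of 59 members, 19 of 37 in the large subunit and 15 of 22 in the small subunit, against 27.7% of all genes. The other TOP genes had it in 6 of 10 and mitochondrial ribosomal protein genes in 22 of 69. The sequence TATAA, 20 to 40 bases before the start, was found at 4 members (5.63% of starts, against 3.52% of all starts), all in the small subunit. Members whose nearest start held a run had a median log2 ratio in replicate 3 of -0.96 (30 genes) and those without -0.84 (26 genes). A match describes these letters only.

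The windows below run from 10 bases before the annotated start to 20 bases from it, 5' to 3', with the pyrimidine run in capitals; they show the leading genes of the small subunit, members with a high and a low ratio in replicate 3, and Rps19, which held no run at this start. They lie at chr14:24490668-24490697 (plus strand, Rps24), chr3:90213629-90213658 (minus, Rps27), chr2:39005112-39005141 (minus, Rpl35), chr2:180257369-180257398 (plus, Rps21), chrX:37085203-37085232 (minus, Rpl39) and chr7:24884582-24884611 (plus, Rps19).
Rps24: gctggggtCCTTCCTTgcgcgttgatatga
Rps27: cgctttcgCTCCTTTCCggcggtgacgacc
Rpl35: ccgccCTTTCCTCTTTCTCTCgaaccaggc
Rps21: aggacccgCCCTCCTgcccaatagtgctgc
Rpl39: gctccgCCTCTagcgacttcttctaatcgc
Rps19: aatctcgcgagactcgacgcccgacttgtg
The longest of these runs, 16 bases as counted, belongs to Rpl35, the member with the highest ratio of replicate 3 to the others. In Rpl35 further C lie directly before the counted run. Runs of 8 and 7 bases belong to Rps24 and Rps21, which lie at opposite ends of the ratios. Some of these RefSeq starts lie far from the GENCODE start of the member's most abundant coding transcript: 493 bases for Rpl35, 221 for Rps19 and 180 for Rpl39. Starts of other GENCODE transcripts were not compared.

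Copies elsewhere in the genome set a limit on single members. Of the 76 expressed members, 68 had at least 1 gene outside the set that shares 25% or more of the 31-base words of their main coding transcript, 369 such copies in all. Of these, 109 had a mean of at least 1 TPM. The copies together held 11.3%, 11.7% and 12.8% of the TPM of members and copies, but 5.99%, 5.98% and 8.03% of the counts. In the kallisto-format tables the copies held 10.8%, 11.2% and 15.9% of the counts. The copies exceeded the member itself for 11 members in the kallisto-format tables and for 5 in the gene table. Of 115 copies with at least 1 TPM in either kind of table, 22 matched the coding sequence of a member over its whole length without a difference, and these belong to 20 members. Within such sequence a read carries nothing that tells the gene from the copy, so the split rests on the estimate and on the untranslated ends.

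Rpl41 (chromosome 10, 128548114 to 128549305, minus strand), the shortest ribosomal protein, shows this over its whole coding sequence of 75 bases, which the annotated non-coding RNA gene Gm10076 on chromosome 14 repeats base for base. The first 75 coding bases of Rps12 and of Rps6 are shown because they are identical in Rps12-ps3 and Rps6-ps4, and a stretch of Rpl35 (coding bases 43 to 117, counted from 1 at the A of the start codon) because it holds the only difference from Gm2000, C117T, in capitals.
Rpl41 and Gm10076: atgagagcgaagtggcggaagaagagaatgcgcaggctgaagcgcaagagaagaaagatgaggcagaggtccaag
Rps12 and Rps12-ps3: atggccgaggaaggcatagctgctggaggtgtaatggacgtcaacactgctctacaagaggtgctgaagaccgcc
Rps6 and Rps6-ps4: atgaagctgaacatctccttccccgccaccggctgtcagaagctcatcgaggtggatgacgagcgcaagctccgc
Rpl35: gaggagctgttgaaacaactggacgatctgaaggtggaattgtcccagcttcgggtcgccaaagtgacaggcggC
Gm2000: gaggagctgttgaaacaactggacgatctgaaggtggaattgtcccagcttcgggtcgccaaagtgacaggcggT
Rps12 and Rps12-ps3 were identical over 396 of 396 coding bases, Rps6 and Rps6-ps4 over 747 of 747, and Rpl35 and Gm2000 differed at 1 of 369.

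The kallisto-format transcript tables, summed per gene, gave other levels for members and copies. By the mean over the libraries each of the 76 expressed members was lower there than in the gene table, by a median log2 difference of -0.43 (SD of the library medians 0.16, n = 3), and 7 were over 2-fold lower. All genes with a mean of at least 1 TPM had a median difference of -0.27. The largest gap was that of Rps12 (chromosome 10, 23785183 to 23787275, minus strand), with 40.8 TPM in replicate 1 in the kallisto-format table and 1640 TPM in the gene table. Rps12-ps3 held 1543 TPM in that library in the kallisto-format table and 106 TPM in the gene table. The sums of Rps12 and all its copies were 1589 and 1791 TPM. Rpl12 (27.2 TPM in the kallisto-format table and 530 TPM in the gene table, replicate 1) and its copy Gm10275 (1058 and 350 TPM) stood in the same relation. Rpl5 had 16.9 and 141 TPM in that library, while its copy Gm15500 had 506 and 569 TPM and was not higher in the kallisto-format table there; in replicate 3 Gm15500 had 633 and 511 TPM. With copies summed, 0 of the 76 were over 2-fold lower, and the median difference was -0.43 as before. Rpl5 was the lowest expressed member alone, but with its copies it stood at 709.8, 784 and 649.9 TPM in the gene table.

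**Figure D5:**
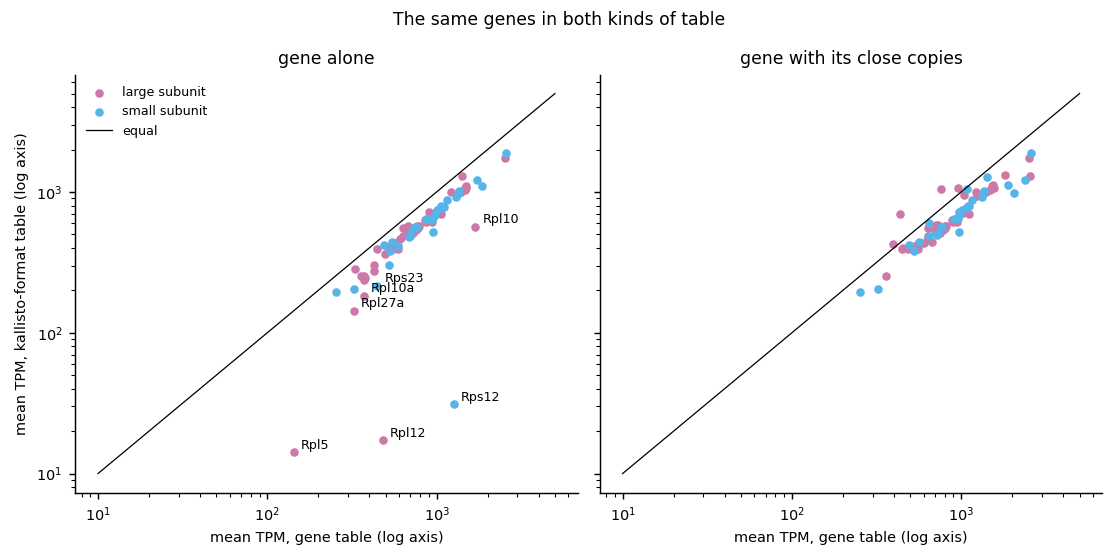
Mean TPM over 3 libraries in the gene table (horizontal) and in the kallisto-format table (vertical), both log axes, 1 point per expressed gene, for the gene alone (left) and with its close copies summed (right); the line marks equal values. The 7 labelled genes over 2-fold lower in the kallisto-format table, with Rps12, Rpl12 and Rpl5 farthest from the line, join the others once copies are summed.

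Some copies also differed between the libraries in the opposite direction from their member. Rps6-ps4 stood at 89.6, 77.3 and 583 TPM in the gene table, and at 0.000546, 0 and 546 TPM in the kallisto-format table. Rps6 alone stood at 882, 820 and 459 TPM, and Rps6 with all its copies at 973, 898 and 1042 TPM. The log2 ratio of Rps6 in replicate 3 was -0.54 alone and 0.36 with copies, so its direction depends on the copies. Rpl36a-ps2 stood at 192, 199 and 487 TPM, and Rpl36a with copies had a ratio of -0.34, against -1.27 alone. Gm2000 stood at 696, 614 and 102 TPM, and Rpl35 with copies had a ratio of 0.52, against 1.03 alone. Rps19, with 5 copies, had a ratio of -2.64 both ways, while Rpl39 and Rps21 had no copy by this rule. With copies summed the median ratio of all 76 members was -0.75.

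High TPM of short copies came from few reads. Gm14303, a copy of Rps29 that spans 171 bases, stood at 714, 1251 and 0 TPM, from 102, 189 and 0 counts at an effective length of 5.83 to 7.71 bases. Rps29 itself had 5837, 7199 and 2445 counts. Gm10443, a copy of Rps28 that spans 210 bases, stood at 812, 1007 and 147 TPM from 302.5, 396 and 106 counts. Both copies were listed at 0 in the kallisto-format tables.

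Most ribosomal protein genes were represented by a single transcript form. The most abundant transcript took a median of 97.0% of a gene's TPM over the 76 genes, and at least 90% in 50 of them. It was the same in all 3 libraries for 64 genes, and in both tables as well for 57. Coding transcripts took 96.2%, 95.7% and 95.5% of the members' TPM, and transcripts with a retained intron 1.61%, 1.70% and 1.77%. Low dominant shares were those of Rpl13a (37.8%), Rpl31 (42.4%), Rps3 (52.1%) and Rpl30 (52.2%). Rpl13a is known in human myeloid cells as a translational silencer after interferon gamma. In Rps16, Rps20 and Rpl5 the most abundant form in replicate 1 was annotated as a retained intron. For Rps16 this was Rps16-203, with 235, 259 and 199.6 TPM. For Rpl5 the kallisto-format table put the retained-intron form Rpl5-202 at 14.9% in replicate 1, below the coding form Rpl5-201 at 44.0%.

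Replicate 3 used other forms of several genes, in both kinds of table. Of 74 members with 2 or more transcripts, 12 had a form in the RSEM-format transcripts whose share in replicate 3 lay at least 25 percentage points above or below its share in both other libraries, and 8 had one in both tables. Other genes as abundant did so in 20.9% of cases in the RSEM-format table (142 of 680) and in 15.6% in both tables, so the members' share of 16.2% was near that of other genes. The same count was 0 of 74 members for replicate 1 and 0 of 74 for replicate 2. In Rpl29 the 583-base form Rpl29-202 took 70.5% in replicate 3, against 0.63% and 0.41% in replicates 1 and 2. In Rpl11 the form Rpl11-210 took 69.5%, against 0.89% and 0.94%, and by the kallisto-format estimate it took 76.6%, against 36.6% and 35.0%.

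In Rplp2 the 421-base form Rplp2-203 took 91.5% in replicate 3, against 27.6% and 27.4%, and the mean effective length of the gene was 222 bases, against 541 and 549 in replicates 1 and 2. This length enters the TPM: Rplp2 fell to 520 TPM in replicate 3, against 705 and 664 TPM, while its log2 ratio of counts was -1.37. The form Rpl10-211 of Rpl10 stood at 1.25 TPM in replicate 3, against 658 and 1081 TPM in replicates 1 and 2. The form Rps3-202 of Rps3 was listed at 0 there, against 100.5 and 130 TPM in replicates 1 and 2. Why these forms differ was not tested.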

How the data were processed

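Each of 3 libraries came with a gene table and 2 transcript tables. Expected counts in the gene and RSEM-format transcript tables were deposited by the authors, per the file headers, and are often not whole, since a read matching several transcripts is divided among them; they were rounded for TMM scaling. The authors also deposited estimated counts per transcript in kallisto format, summed per gene here. TPM values in all tables were deposited by the authors, per the file headers. The labels give build mm10, and the deposited file lists give annotation M21 (GENCODE). Aligner, program versions and strand handling: not given in the sources used here. Reads of overlapping antisense genes may be included.

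Counts were filtered with filterByExpr and scaled by TMM factors in edgeR 4.0.16 (R 4.3.3); log2 CPM used a prior count of 0.5. A library's ratio is its log2 value minus the mean of the other libraries. The ratio step was tested on simulated data. Genes need a mean of 1 TPM to count as expressed. Entries that name no gene took 0.131%, 0.122% and 0.0843% of counts and were left out. With 1 group, the only test was the exact sign-flip permutation test of large over small subunit. Wilson intervals (95%) and the floor of 3 counts cover counting error only.

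Members, gene lists and tests were chosen with earlier results of these data known. Genes were named by a rule: per subunit the 5 highest and 5 lowest expressed, members under 1 TPM, the 5 most and 5 least variable, the stalk, paralog pairs, the 5 lowest dominant shares, the 5 largest differences between tables and examples of a role; Rpl21, Rpl29, the list genes and the copies were chosen after their values were seen. Some genes that the rule names are not reported here. Alternatives are in the closing section. Copies share at least 25% of the 31-base words of a member's most abundant coding transcript; they were aligned without gaps to its coding sequence. Start windows are from RefSeq, build GRCm38.p6, transcripts from GENCODE M21.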

Additional observations from a re-analysis of the deposited data

How the results depend on the processing

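The number of expressed members, the level of the members, their share of counts and the difference between the tables each moved by less than the spread between libraries (or, for the count, stayed at 76) under all alternatives run. Large over small subunit kept its sign under the other alternatives run and reversed to 0.0693 without length correction; it was -0.20 on kallisto-format TPM, -0.19 by full transcript length, -0.14 with close copies summed and -0.07 on kallisto-format TPM with copies summed (exact p = 1), the last 3 chosen after seeing the data; without 1 replicate it ranged from -0.53 to -0.23, and no setting can bring its p below 0.25. The members' median log2 ratio in replicate 3 (-0.84) was -1.16 on the log2 TPM scale with pseudocount 1, where all tested genes shifted by -0.23 (members minus all genes -0.93), -0.93 on kallisto-format counts, and -0.83 and -0.78 without replicate 1 or 2. With copies summed, an alternative chosen after seeing the data, it was -0.75, and -0.77 on kallisto-format counts. The dominant transcript share (97.0%) was 95.5% in the kallisto-format table and 99.2% among coding transcripts only, where other forms are left out by construction. The cause of the other shifts was not tested. Of single members, 16 of 76 moved over 1.5-fold in the kallisto-format table, and 24 moved by more than their SD over libraries. Without any 1 replicate 0 of 76 moved over 1.5-fold. Leaving out 1 of 3 libraries cannot raise a mean by more than 1.5-fold, so that count is no check of stability. No paired analysis was possible because there is only 1 group. Levels of short genes are limited by effective length and those of genes with identical copies by the split of shared reads.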
